A study of Homo sapiens with 4 samples.

Results

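RNA carries many chemical marks besides the N6-methyladenosine (m6A) that METTL14 helps to write on mRNA. The transcripts of 52 enzymes and enzyme partners that write, remove or help to place those other marks were compared between METTL14 knockdown and control neuroblastoma cells. The members were taken by symbol from a list of gene names, with no cut on measured values, and all 52 were found among the 60671 gene identifiers of the count table. They were ordered by substrate: 4 act on the mRNA cap, 8 place m7G, m3C or m5C on tRNA, 13 act elsewhere on tRNA, 10 act on rRNA, 5 make pseudouridine, 10 serve mitochondrial RNA or the mitochondrial ribosome, and 2 act on a small nuclear RNA or a ribosomal protein.

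The libraries came from SK-N-BE(2), a MYCN-amplified human neuroblastoma cell line. The control group (shNC) carried a control short hairpin RNA and the knockdown group (shMETTL14) a hairpin against METTL14, with 2 libraries each. The study's methods describe a lentiviral hairpin vector and more than one METTL14 hairpin, and the labels do not say which hairpin was sequenced, so effects of the target and of one hairpin cannot be told apart. No source used here says whether the 2 libraries of a group came from separate cultures, so the p-values measure the spread between these libraries only, which may be technical.

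Each library held between 18925786 and 19886214 counts assigned to genes. Counts are given as deposited. Levels are given as CPM, each gene's count relative to its library's total and scaled to the effective library size by the TMM method. Differences are log2 fold changes of shMETTL14 over shNC with their standard error (SE). A gene was called at a Benjamini-Hochberg adjusted p under 0.05 in edgeR's quasi-likelihood test over the 16309 genes that passed a filter on low counts, and all 52 members passed it. An exact permutation test of 2 against 2 libraries cannot go below 0.333, so no single-gene permutation test was run. METTL14 itself, the targeted gene, had 753 and 754 counts in the shNC libraries and 303 and 321 in the shMETTL14 libraries. Its log2 fold change was -1.26 (SE 0.083, adjusted p = 3.6e-11). The 12 neuroblastoma markers examined were all present. Of these, 3 rose (25%, beside 27.2% of all genes), namely ISL1, MYCN and ELAVL4, and 9 fell (75%, beside 25.3%). MYCN rose by 0.28 (SE 0.033, adjusted p = 3.8e-07). The summed level of the 12 was 6113 to 6246 CPM in shNC and 6053 to 6078 CPM in shMETTL14. Of 14 markers of other cell types, 7 had at most 3 counts in each library, among them KRT5 and SOX10 at 0. Of the 6 that could be tested 4 fell (66.7%, beside 25.3% of all genes). The sum of the 14, 144.4 to 144.8 CPM in shNC and 119.1 to 126.5 CPM in shMETTL14, was mostly PDGFRB. The part of these markers in the results below was not tested.

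Transfer RNAs are the most heavily modified RNAs of the cell, and their marks shape folding, stability and decoding. Ribosomal RNA is modified in the nucleolus, largely by ribonucleoprotein particles that use small nucleolar RNAs as guides, and a separate set of nuclear-encoded enzymes modifies the RNAs of the mitochondrion. Growing cells, including MYCN-driven neuroblastoma cells, rely on these systems to make ribosomes and to translate.

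The 52 members changed in both directions, and by little. 30 of them were called (57.7%), beside 52.5% of all genes tested. 21 rose (40.4% of the members, 27.2% of all genes) and 9 fell (17.3% of the members, 25.3% of all genes). The median log2 fold change was 0.14 over the members and -0.0010 over all genes, and the members ranged from -0.69 to 0.59. Changes of 1.5-fold or more were called in 3 members (5.77%), METTL15, PUS10 and TRMT6, beside 18.8% of all genes. The number was 2 with each of the other scalings and where every library had to hold 10 counts. The median size of the change, sign aside, was 0.24 in the members and 0.30 over all genes. Neither the 1.5-fold share nor this median was computed for all genes of at least 10 CPM. In the related lists described below, the 1.5-fold share was 6.67% of nucleolar assembly factors, 6.25% of the m6A machinery and 7.89% of mitochondrial ribosomal protein genes. It was 12.7% of the other RNA modification enzymes and 12.5% of the partner genes. The libraries of the 2 groups did not overlap in 43 members (82.7%), beside 75.5% of all genes. Most members were well expressed: 49 had a mean of at least 10 CPM, and of these 61.2% were called, beside 64.2% of all genes at that level. Near the call threshold the split depended on the scaling. With upper quartile scaling, 17 members were called higher and 12 lower, so that 58.6% of the calls were higher, against 70% with TMM. Over all genes the same change of scaling took this share from 51.8% to 41.7% and moved the median log2 fold change by -0.0676. In bulk RNA, fewer cells of a type and less RNA per cell cannot be told apart, and this holds for each level below.

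**Figure D1:**
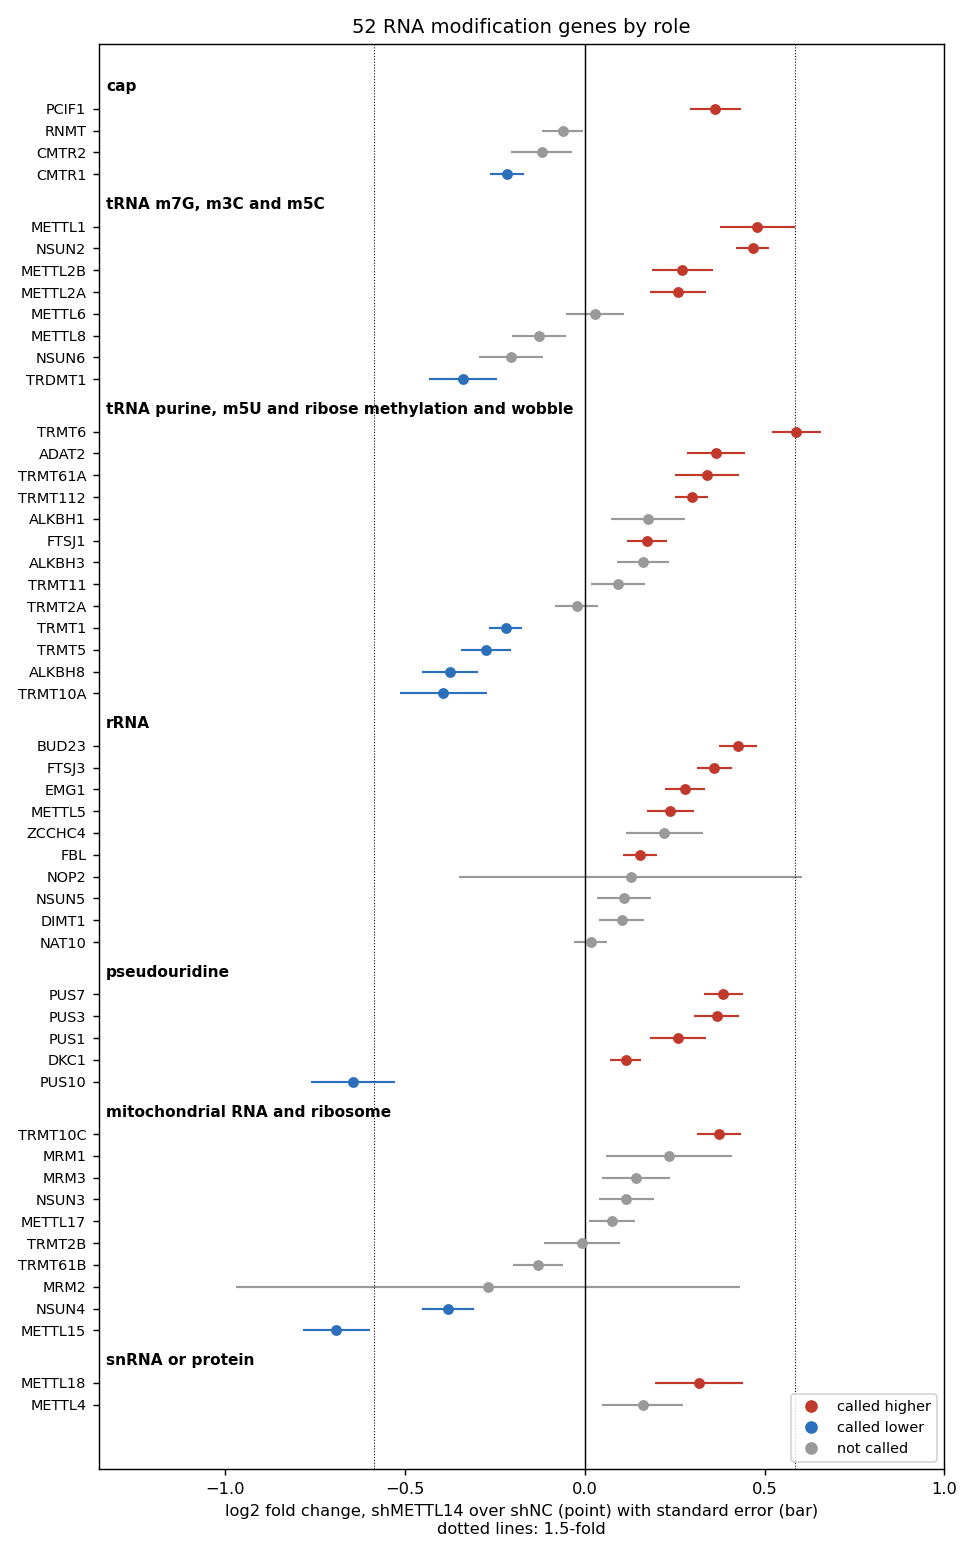
Log2 fold change of shMETTL14 over shNC (x axis) for the 52 members, grouped by role (y axis), with points for the edgeR estimate, bars for its standard error and colours for the call. Called rRNA enzymes all lie on the higher side, while METTL15 and PUS10 lie beyond 1.5-fold on the lower side and TRMT6 on the higher side.

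Expressed per length, the members spanned a wide range of levels. Highest was TRMT112, the small protein that activates several methyltransferases, at 87.9 CPM per kb of exon in shNC and 108 in shMETTL14. FBL, the catalytic methyltransferase of the box C/D particles, followed at 73.8 and 82.1, and DKC1, the pseudouridine synthase of the box H/ACA particles, at 42.7 and 46.2. PUS10 and TRDMT1 were both at 1.80 CPM per kb in shNC. The length used is that of all annotated exons of a gene, so the order depends on annotation. It is 7651 bases for PUS10 and 10535 for TRDMT1, whose transcripts with the longest coding sequence have 2278 and 3527 bases. NOP2 and MRM2 had the lowest counted values, at 0.126 and 0.154 CPM per kb in shNC, and both stayed under 1 CPM in every library. Whether reads of these genes were lost in the counting was not tested, so the values may not be their expression levels.

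**Figure D2:**
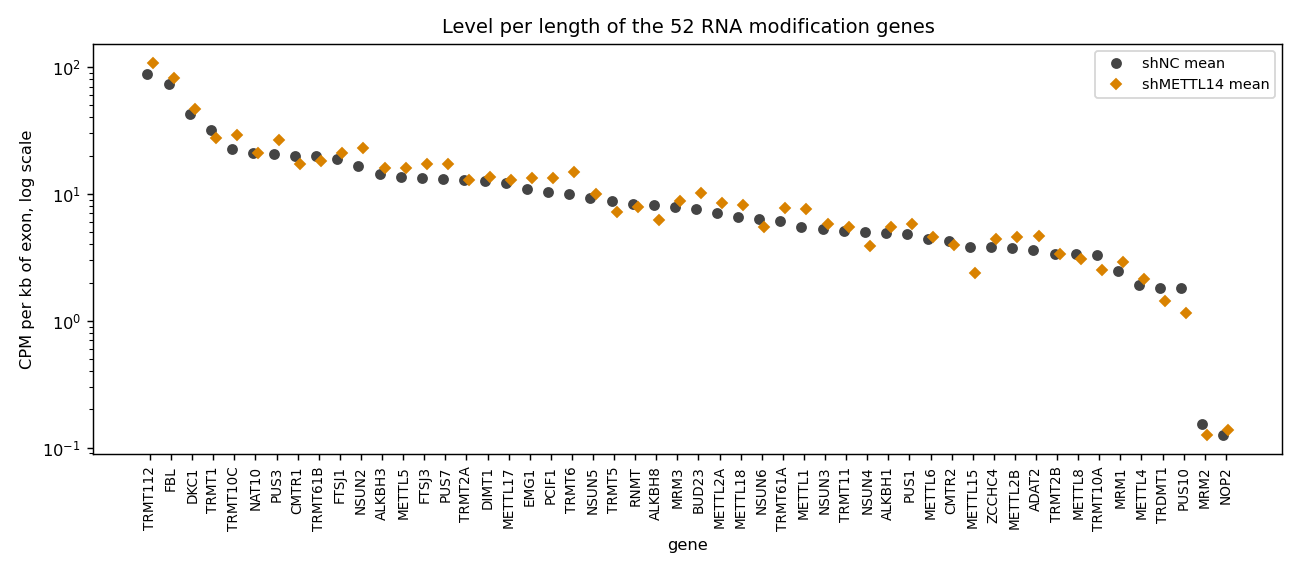
Mean CPM per kb of annotated exon (y axis, log scale) of the 52 members (x axis), in order of the shNC level, for shNC (circles) and shMETTL14 (diamonds). TRMT112, FBL and DKC1 stand highest, and NOP2 and MRM2 have the lowest counted values. The 2 groups lie close together on this scale for most members and are furthest apart in METTL15, PUS10 and TRMT6.

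The largest increase was in TRMT6 (ENSG00000089195, chr20:5937235-5950558, minus strand, GRCh38), the non-catalytic subunit of the nuclear enzyme that places m1A in the T loop of tRNA. TRMT6 had 762 and 700 counts in the shNC libraries and 1160 and 1024 in the shMETTL14 libraries. Both knockdown libraries lay well above both controls. The mean rose from 37.4 ± 1.18 CPM (SD, n = 2) to 56.2 ± 4.27 CPM (SD, n = 2), a log2 change of 0.59 (SE 0.068, adjusted p = 2.1e-07). This value lies just past 1.5-fold, and it ranged from 0.51 to 0.67 when each library was left out in turn. It was short of 1.5-fold, though called, with RLE scaling (0.5841), upper quartile scaling (0.5208) and library size alone (0.5432). The same held where every library had to hold 10 counts (0.5703). TRMT61A, the catalytic subunit of the same enzyme, had 369 and 405 counts in shNC and 486 and 488 in shMETTL14. It rose by 0.34 (SE 0.089, adjusted p = 0.00293) without overlap between the groups. Without shNC library 1 the estimate was 0.24 and the call was lost (adjusted p = 0.0635), as it was with DESeq2 (adjusted p = 0.0521).

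The largest decrease was in METTL15 (ENSG00000169519, chr11:28108248-28527041, plus strand), which methylates a cytidine of the mitochondrial small-subunit rRNA. Its counts were 564 and 594 in shNC and 327 and 386 in shMETTL14, with both knockdown libraries far below the controls. The mean fell from 29.7 ± 1.93 CPM to 18.4 ± 2.37 CPM (SD, n = 2 each), leaving 62.0% of the control level. The log2 change was -0.69 (SE 0.094, adjusted p = 2.2e-06). Without shMETTL14 library 1 it was -0.56, short of 1.5-fold but still called. PUS10 (ENSG00000162927, chr2:60940222-61018259, minus strand), a pseudouridine synthase of tRNA, had 269 counts in each shNC library and 167 and 175 in the shMETTL14 libraries. The groups stood clear of each other. Its mean fell from 13.8 ± 0.390 CPM to 8.81 ± 0.399 CPM (SD, n = 2 each), or 64.0% of the control level, with a log2 change of -0.64 (SE 0.116, adjusted p = 7.4e-05).

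**Figure D3:**
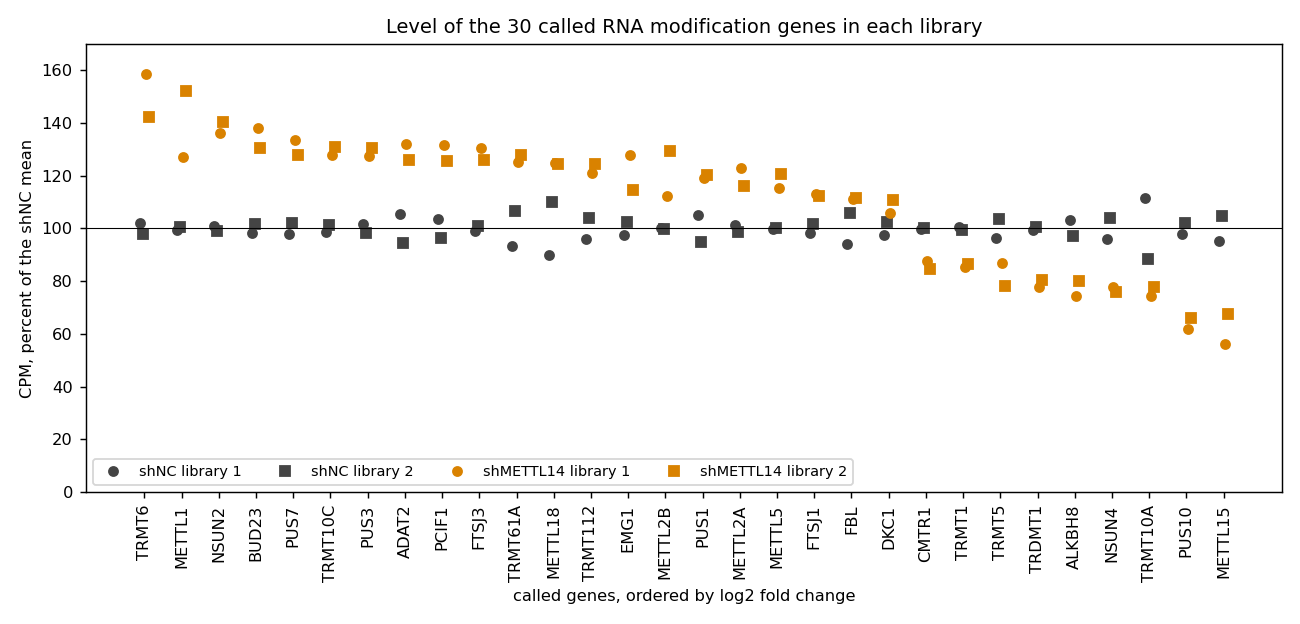
CPM of the 30 called members in each of the 4 libraries (y axis, percent of the shNC mean), ordered by log2 fold change (x axis), with circles for library 1 and squares for library 2 of each group. The shMETTL14 libraries of TRMT6 reach above 140% of the control mean and those of METTL15 and PUS10 lie below 70%, while the 2 groups nearly meet at DKC1.

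Among the tRNA enzymes that place m7G, m3C and m5C, 4 rose (50%), 1 fell (12.5%) and 3 were not called. Of all genes tested, 27.2% rose and 25.3% fell. METTL1 (ENSG00000037897, chr12:57768471-57772793, minus strand), the catalytic subunit of the tRNA m7G methyltransferase, had 283 and 275 counts in shNC and 355 and 418 in shMETTL14. The controls were nearly equal and the knockdown libraries were apart from each other, though both higher. METTL1 rose by 0.48 (SE 0.103, adjusted p = 0.0005). A share of 23.4% of its exon bases is also annotated to other genes, among them the coding genes EEF1AKMT3 and CYP27B1. Its partner WDR4, which holds the tRNA, went from 435 and 372 counts to 514 and 507 and rose by 0.35 (SE 0.087, adjusted p = 0.00184). NSUN2 (ENSG00000037474, chr5:6599239-6633291, minus strand), the main m5C methyltransferase of cytosolic tRNAs, had 1845 and 1744 counts in shNC and 2447 and 2480 in shMETTL14. Its groups were far apart relative to their spread, and it rose by 0.47 (SE 0.045, adjusted p = 1.7e-08). TRDMT1, a DNA methyltransferase homologue that methylates tRNA, had 377 and 365 counts in shNC and 289 and 294 in shMETTL14. It fell by 0.34 (SE 0.095, adjusted p = 0.00489), a call that was lost with DESeq2 (adjusted p = 0.103). NSUN6, which also methylates tRNA cytosines, had 430 and 433 counts in shNC and 390 and 354 in shMETTL14, a log2 difference of -0.21 (SE 0.090) that was not called (adjusted p = 0.0595). It was called under 3 other settings (adjusted p = 0.0142 with upper quartile scaling). METTL8, the mitochondrial m3C enzyme, was at -0.13 and METTL6, its cytosolic relative, at 0.03, and neither was called. With upper quartile scaling METTL8 was at -0.19 and called (adjusted p = 0.0346) and METTL6 was at -0.0397.

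METTL2A and METTL2B, the m3C methyltransferases of further cytosolic tRNAs, are near-identical copies and their counts are therefore uncertain. Their coding sequences, each 1134 bases long in GENCODE 29, differ at 15 bases and are 98.7% identical. A stretch of 30 coding bases is shown to make this visible, coding bases 19 to 48 of each gene, 5′ to 3′, with the base that differs in capitals. METTL2A lies at chr17:62423921-62423950 and METTL2B at chr7:128476784-128476813, both in a coding exon on the plus strand of GRCh38.
METTL2A: gaaggtgcacctgcaGtcctcgccgataag
METTL2B: gaaggtgcacctgcaAtcctcgccgataag
Of the 150-base words of the METTL2A transcript, 12.4% recur in another gene, and of those of METTL2B, 27.5%. METTL2A had 545 and 508 counts in shNC and 649 and 603 in shMETTL14, and METTL2B had 507 and 484 in shNC and 557 and 631 in shMETTL14. Both were higher in both knockdown libraries. METTL2A rose by 0.26 (SE 0.078, adjusted p = 0.00774) and METTL2B by 0.27 (SE 0.084, adjusted p = 0.00979). METTL2A was not called without shMETTL14 library 1 (0.22, adjusted p = 0.0741) nor METTL2B without shMETTL14 library 2 (0.17, adjusted p = 0.176), and DESeq2 called neither (adjusted p = 0.0891 and 0.094).

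The 13 enzymes and partners that act elsewhere on tRNA divided into 5 that rose (38.5%), 4 that fell (30.8%) and 4 that were not called. Over all genes these shares were 27.2% and 25.3%. Besides TRMT6 and TRMT61A, the largest increase was in ADAT2, the catalytic subunit of the enzyme that makes inosine at the wobble position. ADAT2 had 548 and 470 counts in shNC and 672 and 631 in shMETTL14. It rose by 0.37 (SE 0.081, adjusted p = 0.00061), with the groups apart. TRMT112 had 2737 and 2842 counts in shNC and 3390 and 3426 in shMETTL14 and rose by 0.30 (SE 0.045, adjusted p = 9.3e-06). A share of 17.5% of its exon bases overlaps ESRRA on the opposite strand. FTSJ1, which methylates the ribose in the anticodon loop, went from 1051 and 1043 counts to 1188 and 1158 and rose by 0.17 (SE 0.057, adjusted p = 0.0137). The FTSJ1 call was lost without shNC library 1 (0.15, adjusted p = 0.0818), without shMETTL14 library 1 (0.17, adjusted p = 0.0695), under scaling by the upper quartile (adjusted p = 0.124) or by library size alone (adjusted p = 0.063), and with DESeq2 (adjusted p = 0.126).

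The decreases in this group were in guanosine methyltransferases and a wobble uridine enzyme. TRMT10A, which methylates a guanosine at the junction of the tRNA arms, had 320 and 244 counts in shNC and 210 and 216 in shMETTL14. The controls differed from each other by more than the knockdown libraries did, but did not overlap them. TRMT10A fell by 0.39 (SE 0.121, adjusted p = 0.00925). It was not called without shNC library 1, where it was at -0.22 (adjusted p = 0.209), or with DESeq2 (adjusted p = 0.122). ALKBH8, which completes the methylated wobble uridine of several tRNAs, had 750 and 678 counts in shNC and 532 and 562 in shMETTL14 and fell by 0.37 (SE 0.077, adjusted p = 0.00031). Its groups were well separated. TRMT5, which methylates a guanosine next to the anticodon, went from 958 and 988 counts to 849 and 750 and fell by 0.27 (SE 0.069, adjusted p = 0.00195). Without shMETTL14 library 2 TRMT5 was at -0.19 and not called (adjusted p = 0.0644). TRMT1, the dimethylguanosine enzyme, went from 2147 and 2036 counts to 1792 and 1778 and fell by 0.22 (SE 0.046, adjusted p = 0.00035). Of the members of this group that were not called, the demethylases ALKBH1 and ALKBH3 were at 0.18 and 0.16, TRMT11, a guanosine methyltransferase, at 0.09 and TRMT2A, which makes m5U, at -0.02. ALKBH3 was called without shNC library 2 (0.21, adjusted p = 0.0494).

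Of the 10 rRNA enzymes 5 rose and 5 were not called, with a median log2 fold change of 0.19. The share called was 50%, beside 52.5% of all genes, and the share that rose was 50%, beside 27.2%. BUD23 (ENSG00000071462, chr7:73683025-73705161, plus strand), which places m7G on the small-subunit rRNA together with TRMT112, had 1173 and 1164 counts in shNC and 1618 and 1503 in shMETTL14. Both knockdown libraries were far above controls that were nearly equal. BUD23 rose by 0.43 (SE 0.053, adjusted p = 6.5e-07). A share of 12.9% of the BUD23 exon bases overlaps STX1A or DNAJC30 on the opposite strand. FTSJ3, a ribose methyltransferase of pre-rRNA, had 1375 and 1351 counts in shNC and 1784 and 1694 in shMETTL14 and rose by 0.36 (SE 0.050, adjusted p = 2.6e-06). EMG1, which methylates a pseudouridine of the small-subunit rRNA, went from 1329 and 1341 counts to 1711 and 1508 and rose by 0.28 (SE 0.056, adjusted p = 0.00026). The EMG1 count is uncertain, since 53.1% of its exon bases are also annotated to LPCAT3 or C1S. METTL5, the m6A enzyme of the small-subunit rRNA, went from 776 and 747 counts to 881 and 904 and rose by 0.24 (SE 0.066, adjusted p = 0.00425), a call lost with DESeq2 (adjusted p = 0.0579). FBL went from 3009 and 3250 counts to 3485 and 3439 and rose by 0.15 (SE 0.048, adjusted p = 0.0108). The FBL estimate was 0.07 without shNC library 1 (adjusted p = 0.267), 0.09 when scaled by the upper quartile (adjusted p = 0.143), 0.11 by library size alone (adjusted p = 0.059) and 0.16 with DESeq2 (adjusted p = 0.0539), none of them called.

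The lowest values in the rRNA group were in NAT10, the cytidine acetyltransferase, and DIMT1, the dimethyladenosine enzyme. NAT10 had 2128 and 2125 counts in shNC and 2128 and 2147 in shMETTL14, and its groups overlapped. Its log2 difference was 0.02 (SE 0.046, adjusted p = 0.784), and its sign turned when scaled by the upper quartile, at -0.0510, by library size alone, with a stricter count minimum and without shNC library 1. DIMT1 had 933 and 898 counts in shNC and 956 and 998 in shMETTL14, a log2 difference of 0.10 (SE 0.062, adjusted p = 0.171). ZCCHC4, which places m6A on the large-subunit rRNA, had overlapping groups of 360 and 294 counts and 346 and 411 counts and was at 0.22 (adjusted p = 0.0877). Leaving out shNC library 1 or shMETTL14 library 1 brought it to 0.34 and 0.36, both called (adjusted p = 0.028 and 0.00786). NSUN5, the m5C enzyme of the large-subunit rRNA, was at 0.11 and not called. Its pseudogenes NSUN5P1 and NSUN5P2 had counts of their own, between 357 and 408 and between 272 and 286. NOP2, the other large-subunit m5C enzyme, had 11 and 12 counts in shNC and 13 and 12 in shMETTL14. A difference in NOP2 was not detectable at this depth (0.13, SE 0.478). In GENCODE 29, 54.4% of its exon bases and 83.1% of its 150-base words are shared with a coding gene on the same strand, AC006064.6 (ENSG00000285238), which had 0 counts in every library. The part of this overlap in the low NOP2 count was not tested.

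Of the 5 pseudouridine synthases among the members, 4 were called higher (80%) and 1, PUS10, lower (20%). Over all genes 27.2% were called higher and 25.3% lower. Of 8 further pseudouridine synthases outside the members, grouped after their values were seen, 4 rose (TRUB2, RPUSD1, RPUSD2 and PUSL1), PUS7L fell, and TRUB1, RPUSD3 and RPUSD4 were not called. PUS7, which acts on tRNA and mRNA, had 1125 counts in each shNC library and 1505 and 1416 in the shMETTL14 libraries. It stood clear of the controls and rose by 0.39 (SE 0.054, adjusted p = 3.1e-06). PUS3, which acts in the anticodon arm of tRNA, had 836 and 774 counts in shNC and 1029 and 1034 in shMETTL14 and rose by 0.37 (SE 0.062, adjusted p = 3.8e-05). PUS1, which serves nuclear and mitochondrial tRNAs, went from 581 and 505 counts to 648 and 643 and rose by 0.26 (SE 0.078, adjusted p = 0.00827). PUS1 was not called without shNC library 2 (0.19, adjusted p = 0.0841) or with DESeq2 (adjusted p = 0.0865). DKC1 gave the smallest called change, from 3489 and 3522 counts in shNC to 3717 and 3825 in shMETTL14, a rise of 0.11 (SE 0.043, adjusted p = 0.03). The DKC1 call was lost under 6 of the 11 alternatives: without shNC library 1 (0.07, adjusted p = 0.213), without shMETTL14 library 2 (0.09, adjusted p = 0.225), under scaling by the upper quartile (0.05) or by library size alone (0.07), where every library had to hold 10 counts of a gene (0.10), and with DESeq2 (0.12, adjusted p = 0.111).

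Of the 10 mitochondrial members, 1 rose (10%, beside 27.2% of all genes), 2 fell (20%, beside 25.3%) and 7 were not called. TRMT10C, the methyltransferase subunit of mitochondrial RNase P, had 834 and 823 counts in shNC and 1063 and 1069 in shMETTL14. The replicates were close and the groups far apart, and TRMT10C rose by 0.37 (SE 0.061, adjusted p = 2.5e-05). NSUN4, an m5C enzyme that also helps to join the mitochondrial ribosomal subunits, had 812 and 847 counts in shNC and 648 and 620 in shMETTL14. It fell by 0.38 (SE 0.072, adjusted p = 0.00014) and, beside METTL15, was the other decrease among these members. The ribose methyltransferases of the large-subunit rRNA were not called: MRM1 had 94 and 84 counts in shNC and 101 and 107 in shMETTL14 (0.23, SE 0.174, adjusted p = 0.27), and MRM3 was at 0.14. MRM2 (ENSG00000122687, chr7:2234231-2242198, minus strand) had 7 and 10 counts in shNC and 13 and 1 in shMETTL14, so that its knockdown libraries enclosed its controls. Its log2 difference was -0.27 (SE 0.700) and no difference was detectable at this depth. NSUN3, which prepares the formylated wobble cytidine of the mitochondrial methionine tRNA, was at 0.12, METTL17, a factor of mitochondrial ribosome assembly, at 0.08, TRMT2B, an m5U enzyme, at -0.0072, and TRMT61B, the mitochondrial m1A enzyme, at -0.13. TRMT61B was called with upper quartile scaling (-0.20, adjusted p = 0.0226) and with library size alone (-0.17, adjusted p = 0.0411). Without shNC library 1, METTL17 was at -0.0137, and TRMT2B was positive without either shNC library 2 or shMETTL14 library 2, at 0.02 and 0.07.

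The 4 cap enzymes did not move together. PCIF1, which methylates the adenosine next to the cap to m6Am, had 692 and 619 counts in shNC and 864 and 811 in shMETTL14. It rose by 0.36 (SE 0.071, adjusted p = 0.00019), with both knockdown libraries above both controls. CMTR1, the ribose methyltransferase of the first transcribed nucleotide, had 2093 and 2018 counts in shNC and 1805 and 1711 in shMETTL14 and fell by 0.22 (SE 0.046, adjusted p = 0.00047). CMTR2, which acts on the second nucleotide, had 591 and 673 counts in shNC and 595 and 562 in shMETTL14, with overlapping groups. CMTR2 was at -0.12 (SE 0.084, adjusted p = 0.245), at -0.24 and called without shNC library 1 (adjusted p = 0.0296), and at 0.01 without shNC library 2. RNMT, the cap guanine methyltransferase, had 1136 and 1120 counts in shNC and 1062 and 1087 in shMETTL14, a difference of -0.06 (SE 0.057, adjusted p = 0.394). RAMAC, the small protein that activates RNMT, had 379 and 400 counts in shNC and 571 and 655 in shMETTL14 and rose by 0.66 (SE 0.091, adjusted p = 2.4e-06).

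METTL4 and METTL18 are relatives with other substrates. METTL18, a histidine methyltransferase of a ribosomal protein, had 184 and 217 counts in shNC and 251 and 246 in shMETTL14. It rose by 0.32 (SE 0.121, adjusted p = 0.0321) without overlap. METTL18 was not called without shNC library 1 (0.17, adjusted p = 0.335), without shMETTL14 library 1 (adjusted p = 0.065), without shMETTL14 library 2 (adjusted p = 0.0556), when scaled by the upper quartile (adjusted p = 0.089) or by library size alone (adjusted p = 0.0625), with no count filter (adjusted p = 0.0515) or with DESeq2 (adjusted p = 0.224). METTL4, which acts on a spliceosomal small nuclear RNA, had 221 and 204 counts in shNC and 235 and 237 in shMETTL14, a difference of 0.16 (SE 0.113, adjusted p = 0.244).

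Many members work in complexes, and the transcripts of their partners were read beside them. The pairing of genes into complexes was drawn up after their values were seen. Of 16 partner genes, 9 rose (56.2%) and 1 fell (6.25%), with a median log2 fold change of 0.23. Over all genes 27.2% rose and 25.3% fell. In the H/ACA particle, which makes pseudouridine under the guidance of small nucleolar RNAs, all 4 core subunits were called higher, but to unequal extents. NOP10 had 2114 and 2036 counts in shNC and 3633 and 3801 in shMETTL14, a rise of 0.85 (SE 0.045, adjusted p = 9.5e-13). GAR1 rose by 0.46, NHP2 by 0.21 and DKC1, the catalytic subunit, by 0.11. NAF1, which assembles the particle, rose by 0.25, and SHQ1, another assembly factor, was at 0.16 and not called. In the C/D particle SNU13 rose by 0.45, NOP58 by 0.18 and FBL by 0.15, while NOP56 was at 0.11 with an adjusted p of 0.0502.

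Other complexes held members that differed in their call. In mitochondrial RNase P, HSD17B10, the dehydrogenase subunit, had 1448 and 1543 counts in shNC and 2268 and 2189 in shMETTL14 and rose by 0.58 (SE 0.051, adjusted p = 3.7e-09). PRORP, the nuclease, was at -0.06 with overlapping groups. Of the proteins that direct FTSJ1, WDR6 was at 0.02 and not called, and THADA went from 1184 and 1092 counts to 858 and 892 and fell by 0.37 (SE 0.061, adjusted p = 2.6e-05). ADAT3, the partner of ADAT2, had 43 and 48 counts in shNC and 65 and 58 in shMETTL14, a difference of 0.44 with a wide error (SE 0.243, adjusted p = 0.133). THUMPD1, which helps NAT10 to acetylate tRNA, was at 0.04 and not called. TRMT112 serves several enzymes, and of these BUD23, METTL5 and THUMPD3 (0.19) rose, ALKBH8 fell, and TRMT11 and THUMPD2 (0.11) were not called.

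**Figure D4:**
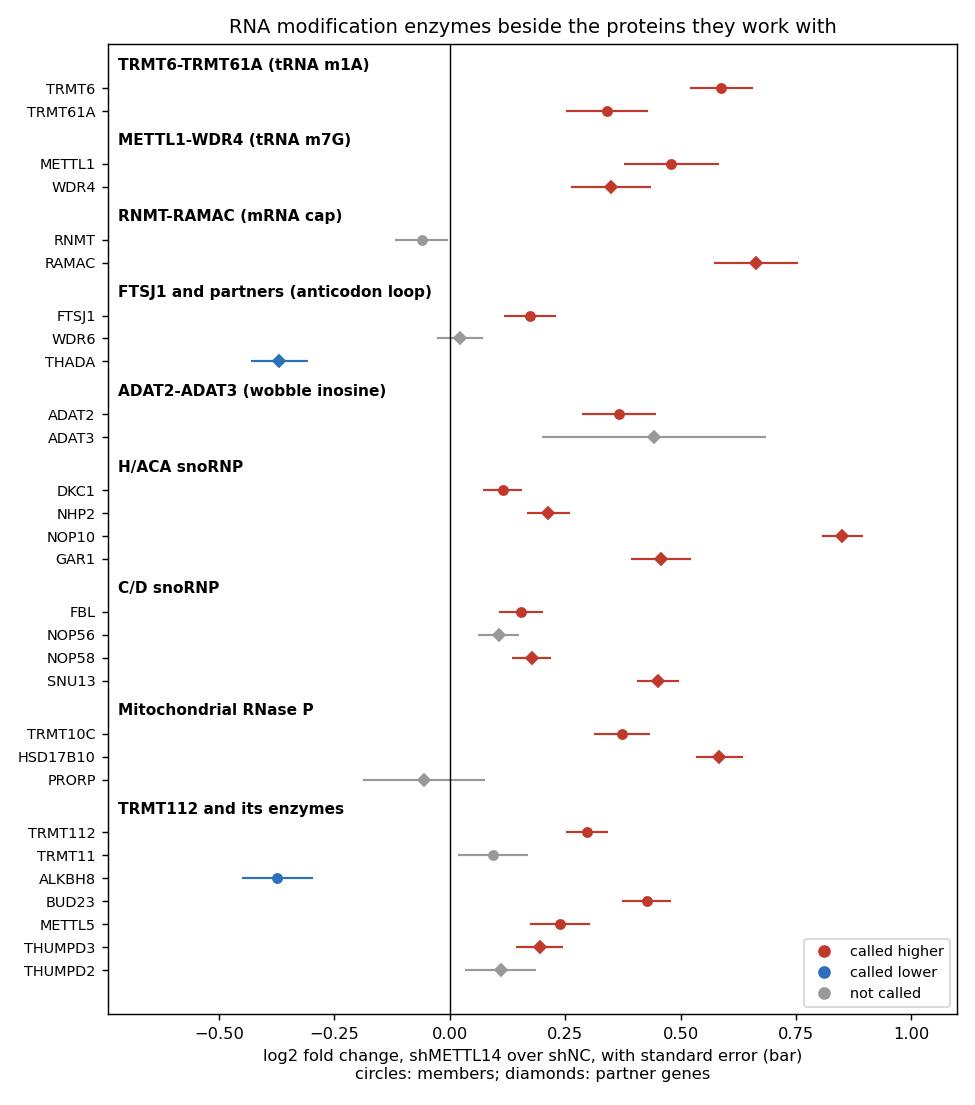
Log2 fold change of shMETTL14 over shNC (x axis) with its standard error for the subunits of 9 enzyme complexes (y axis), with circles for members and diamonds for partner genes. NOP10 stands apart from DKC1 within the H/ACA particle (0.85 and 0.11), and RAMAC from RNMT (0.66 and -0.06).

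The promoters of the members were examined for a shared sequence. RefSeq promoters of GRCh38.p14, each 300 bases long with 250 before and 50 after the start, were matched for 46 of the 52 members. The letters CACGTG, the canonical E-box that MYC-family factors including MYCN can bind, were searched in the first listed promoter of each gene. The motif reads the same on both strands. It was chosen after the members' values were seen, and its presence is a description only. CACGTG was found in 7 of the 46 member promoters (15.2%) and in 7.43% of all 27305 RefSeq promoters searched. Those 27305 were not limited to the 16309 genes that passed the filter on low counts, while all 52 members passed it. The share among genes that passed was not computed, so whether the members differ from other expressed genes was not tested. The 7 members with the motif were TRMT6, TRMT61A, PUS7 and FBL, which rose, and NAT10, MRM1 and NOP2, which were not called. By call, it was in 4 of 18 promoters of members that rose (22.2%), 3 of 19 of members not called (15.8%) and 0 of 9 of members that fell. The motif of the TRMT6 and TRMT61A promoters is shown with 12 bases on each side because both subunits of one enzyme carry it, and those of PUS7 and FBL because they rose too, each 5′ to 3′ on the strand of its gene with the motif in capitals. They lie at chr20:5950512-5950541 (TRMT6, minus strand), chr14:103529216-103529245 (TRMT61A, plus strand), chr7:105522226-105522255 (PUS7, minus strand) and chr19:39846356-39846385 (FBL, minus strand).
TRMT6: agcggcgtgcaaCACGTGggggcggtgccg
TRMT61A: gcgtcgcggaggCACGTGtggagccccggc
PUS7: gtcgctgcgccgCACGTGtgcgagcccggc
FBL: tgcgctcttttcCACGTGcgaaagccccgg
The motif begins after the annotated start in these 4, at base 5 in TRMT6, 33 in TRMT61A, 29 in PUS7 and 7 in FBL, counted from the start as base 1. It also does in MRM1, which was not called, at base 21, while in NAT10 it ends 10 bases before the start. No position is given for NOP2, whose motif lies within 12 bases of an end of its promoter. No factor binding was measured in these libraries.

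The members were then set beside related gene lists from the same fit. Of 57 other RNA modification enzymes 55 could be tested, with a median of 0.0059. Of these, 17 rose (30.9%, beside 27.2% of all genes) and 12 fell (21.8%, beside 25.3%). The largest increases among them were in YRDC, which makes the precursor of the threonylcarbamoyl mark of tRNA (0.75), CTU1, a wobble uridine thiolase (0.68), and PUSL1, a pseudouridine synthase (0.63). CTU1 rested on few counts, 51 and 32 in shNC and 53 and 79 in shMETTL14. The decreases past 1.5-fold were in ELP4, a subunit of the Elongator wobble uridine complex (450 and 389 counts to 222 and 219, a fall of 0.92), and in 2 genes with few counts. NSUN7 went from 17 and 21 counts to 2 and 4. ADARB2, a brain-enriched relative of the adenosine deaminases, went from 15 and 11 counts to 1 and 0. TRMT9B and HENMT1 had at most 1 count in every library.

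Genes that work in the same compartments had higher medians than the 52 members as a whole (0.14). The shares below stand beside 27.2% of all genes that rose and 25.3% that fell. Of 30 nucleolar ribosome assembly factors 18 rose (60%) and 3 fell (10%), with a median of 0.21, led by RRS1 (0.81) and UTP15 (0.77). Of 76 mitochondrial ribosomal protein genes tested 50 rose (65.8%) and 5 fell (6.58%), with a median of 0.27, led by MRPL41 (1.19), MRPS28 (1.18) and MRPL36 (0.96). MRPS28 rested on few counts, 26 and 25 in shNC and 46 and 69 in shMETTL14. Among the members, the rRNA enzymes had a median of 0.19, close to that of the nucleolar factors, and the mitochondrial RNA enzymes one of 0.03. The 16 genes of the m6A machinery, METTL14 included, had 6 that rose (37.5%) and 4 that fell (25%), with a median of 0.04. The difference between these lists was not tested.

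**Figure D5:**
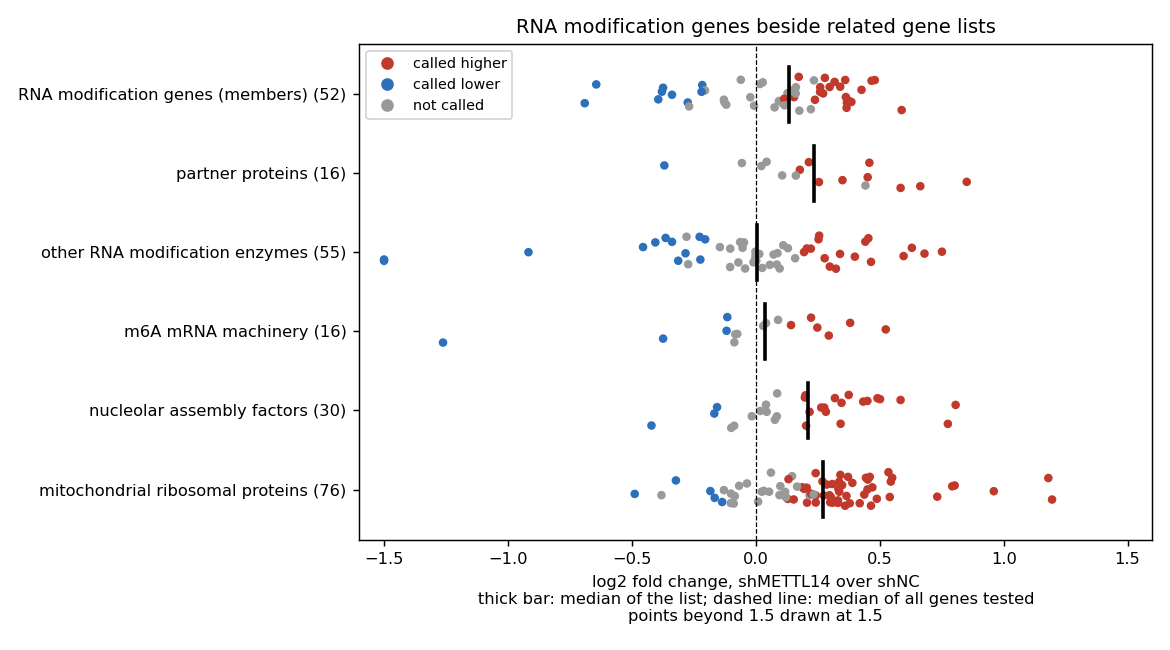
Log2 fold change of shMETTL14 over shNC (x axis) of each tested gene in 6 gene lists (y axis, number of genes tested in parentheses), with a thick bar at the list's median and a dashed line at the median of all genes. The median of the members, 0.14, lies between those of the other RNA modification enzymes, 0.0059, and of the mitochondrial ribosomal proteins, 0.27.

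Annotation limits several of these counts. GENCODE 29 holds 58453 of the 60671 gene identifiers counted, so the counting used another release, and the overlaps given here may differ from those it met. In GENCODE 29, 26 members share exon bases with another gene, 19 of them with a protein-coding gene, and 16 share 150-base words with another transcript. 24 members share neither. Whether the counting used strand is not given in the sources used here, so counts of opposite-strand overlaps cannot be told apart. Examples are TRMT112 with ESRRA, BUD23 with STX1A and DNAJC30, METTL5 with SSB, FTSJ3 with PSMC5 and MRM3 with GLOD4. A share of 5.86% of the METTL15 words recurs in METTL15P1. Of the 30 calls, 18 held under all 11 alternative settings, 12 higher and 6 lower. TRMT6, METTL1, NSUN2, BUD23, PUS7, TRMT10C, PUS3, ADAT2, PCIF1, FTSJ3, TRMT112 and EMG1 rose, and METTL15, PUS10, NSUN4, ALKBH8, TRMT1 and CMTR1 fell. The share of all genes whose call held under all 11 was not computed, so these 18 have no background to stand beside.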

How the data were processed

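RNA-seq was run on 4 libraries, 2 shNC and 2 shMETTL14. The authors deposited a table of raw counts per Ensembl gene. The submitters' processing notes name HISAT2 2.1.0, StringTie 1.3.6, HTSeq 0.13.5, edgeR and the builds GRCh38 and hg38; the annotation release and strand setting are not given in the sources used here. The 5 lines that name no gene, 19.1% to 19.9% of a library's total, were left out. Counts were tested in edgeR 4.0.16 (TMM, filterByExpr, quasi-likelihood F-test on group, 16309 genes, Benjamini-Hochberg adjusted p under 0.05), in R 4.3.3. The common biological coefficient of variation was 3.45%. Exon lengths, overlaps and 150-base words came from GENCODE 29, and promoters from RefSeq. Alternatives were 3 other scalings, 2 other count filters, DESeq2 1.42.0, a replicate block and leaving out each library, 11 fits in all. The members and lists were chosen with earlier results of these data known. Values in every library were given for members past 1.5-fold and for the 2 largest changes each way per role, and for further members that were called or had few counts. Other lists were named by at most the 3 largest calls past 1.5-fold in each direction. Partner genes were also named by complex, a choice made after their values were seen. The counting error and the spread of 2 libraries per group limit the precision.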

Additional observations from a re-analysis of the deposited data

How the results depend on the processing

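Of 52 members, 30 were called, 26 to 30 when each library was left out, 30 with the replicate block and 19 with DESeq2, which lost 11 calls (7 of them not lost by any scaling or filter) and gained none; the cause was not tested. Over all genes the share called was 52.5%, 42.5% to 44% with a library left out and 33.9% with DESeq2. Calls fell with DESeq2 from 29 to 19 in the other RNA modification enzymes and from 10 to 5 in the m6A machinery, which also ranged from 5 to 10 over the left-out libraries, with 5 without shNC library 2. Signs turned only in members that were not called: METTL6 was at -0.0397 with upper quartile scaling and -0.0172 with library size alone, NAT10 at -0.0510, -0.0284 and, where every library had to hold 10 counts, -0.0015, and TRMT2B at 0.0032 with no filter. Over the left-out libraries CMTR2 ranged from -0.2427 to 0.0121, METTL6 from -0.0042 to 0.0603, TRMT2A from -0.0378 to 0.0010, NAT10 from -0.0158 to 0.0495, TRMT2B from -0.0748 to 0.0687, METTL17 from -0.0137 to 0.1687 and MRM2 from -2.9166 to 0.6098. With one library left out, its group's remaining library was assumed to vary like the other group. MRM2 did not pass that count minimum. Same-numbered libraries did not deviate together across all genes (Pearson -0.0018 and Spearman 0.0221, over genes that are not independent). A correlation over all genes cannot tell whether they shared a culture or batch, and the labels give only a replicate number. The replicate block changed no member's call, and the share of all genes called with it was 54.7%.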
